A study of Mus musculus with 6 samples.

Results

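The genes described here encode the enzymes of glycolysis, the transporters that bring glucose in and carry lactate out, and genes that the hypoxia-inducible factors (HIF) control. They were named by symbol as 36 genes, and all 36 were found among the 24413 gene rows of the table. The transcripts of W-EGFP cells were sequenced; these were testicular interstitial cells of FLE-EGFP mouse fetuses at stage E16.5. The 3 SAG libraries came from cells kept for 1 hour with SAG, an agonist of the Hedgehog transducer Smoothened, at 0.5 µM, and the 3 DMSO libraries from cells kept for the same time with the vehicle. Each sample held 10000 cells. The names of all 6 data columns carry "siCnt", which the labels do not explain, and the labels do not give the number of animals behind a sample.

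Glycolysis splits glucose to pyruvate in the cytosol and yields ATP without oxygen, and lactate dehydrogenase then turns pyruvate to lactate. HIF is a pair of an oxygen-regulated alpha subunit and a stable beta subunit. In the presence of oxygen, prolyl hydroxylases mark the alpha subunit for destruction, and when oxygen is short the pair binds hypoxia response elements and raises most glycolytic genes together with targets outside glycolysis. Glycolytic genes have other regulators as well, among them MYC, so HIF targets with no part in glycolysis are given separately.

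Values are the deposited signal, a CPM with a scaling by the authors. Depth was 18486396 to 25491259 reads per library in DMSO but 7694479 to 8804335 with SAG, and SAG replicate 3 lay apart from SAG replicates 1 and 2 on the second principal component (20.8% of the variance). Gli1, the Hedgehog target used as a check of the labels, stood at 0.324 to 0.846 in DMSO and 30.8 to 46.3 with SAG. Of the markers of the labelled cells, Nr5a1, EGFP, Pdgfra, Tcf21 and Nr2f2 were detected, and so were the Leydig genes Star (23.9 to 25.0 in DMSO and 11.2 to 50.7 with SAG) and Cyp11a1 (6.87 to 8.63 and 5.61 to 33.9). Hsd3b1 was at 0 to 0.370 in DMSO and 2.01 to 30.8 with SAG, with the highest value in SAG replicate 3, and Cyp17a1 and Insl3 lay under the filter on low values (mean signal of at least 1). Markers of germ, red blood and macrophage cells were near 0 (summed signals of at most 2.86, 0.508 and 3.41 in any library). Sertoli markers summed to 41.0 to 47.0 in DMSO and 36.8 to 39.8 with SAG, with none of the 3 tested called. Surface epithelial markers summed to 53.4 to 76.7 and 43.0 to 47.9, with Krt8 and Krt18 lower. Of 7 markers of smooth muscle and of peritubular myoid cells, Rgs5 lay under the filter and the other 6 moved with the treatment. The summed signal of the 7 was 15082 to 15869.9 in DMSO and 8979 to 10498 with SAG, and those 6 fell (limma, Benjamini-Hochberg adjusted p under 0.05). The 13 interstitial and Leydig markers went the other way, from 544 to 566 in DMSO to 1058 to 1301 with SAG, with 6 of the 11 tested rising. Of the 6 smooth muscle calls, that of Des, whose groups overlapped, held in 6 of 18 alternative settings, Myh11 in 11 and Acta2 in 17. Those of Cnn1, Actg2 and Lmod1 held in all 18. The part of these shifts in the results that follow was not tested, and in bulk samples fewer cells of a type and less RNA per cell cannot be told apart.

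Transcripts of most steps of glycolysis were lower with SAG, and a few alternative isoenzymes were higher. Of the 36 genes, 33 passed the filter, 12 fell and 5 rose (limma, Benjamini-Hochberg adjusted p under 0.05). Over all 12550 genes tested, 16.6% fell and 12.9% rose, against 36.4% and 15.2% of the 33. Without SAG replicate 3 the members called were 14 lower and 8 higher. With scaling by library totals in place of the authors' factors, the calls over all genes turned from 1625 higher and 2084 lower to 2477 and 1259, and those of the 36 genes from 5 and 12 to 6 and 10. Under it the all-gene median of log2 fold changes moved from -0.03 to 0.10 and the median of the members from -0.12 to 0.01. The 11 glycolytic genes that fell were Slc2a1, Hk2, Gpi1, Aldoa, Tpi1, Gapdh, Pgam1, Eno1, Pkm, Ldha and Slc16a3, and the 3 that rose were Pfkp, Eno2 and Ldhb. The other gene that fell was Hif1a, and Ndrg1 and Mxi1 were the other 2 that rose. All 3 SAG libraries lay below all 3 DMSO libraries in 14 of the 33 genes and above them in 6, against 26.8% and 21.2% of all genes tested.

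**Figure D1:**
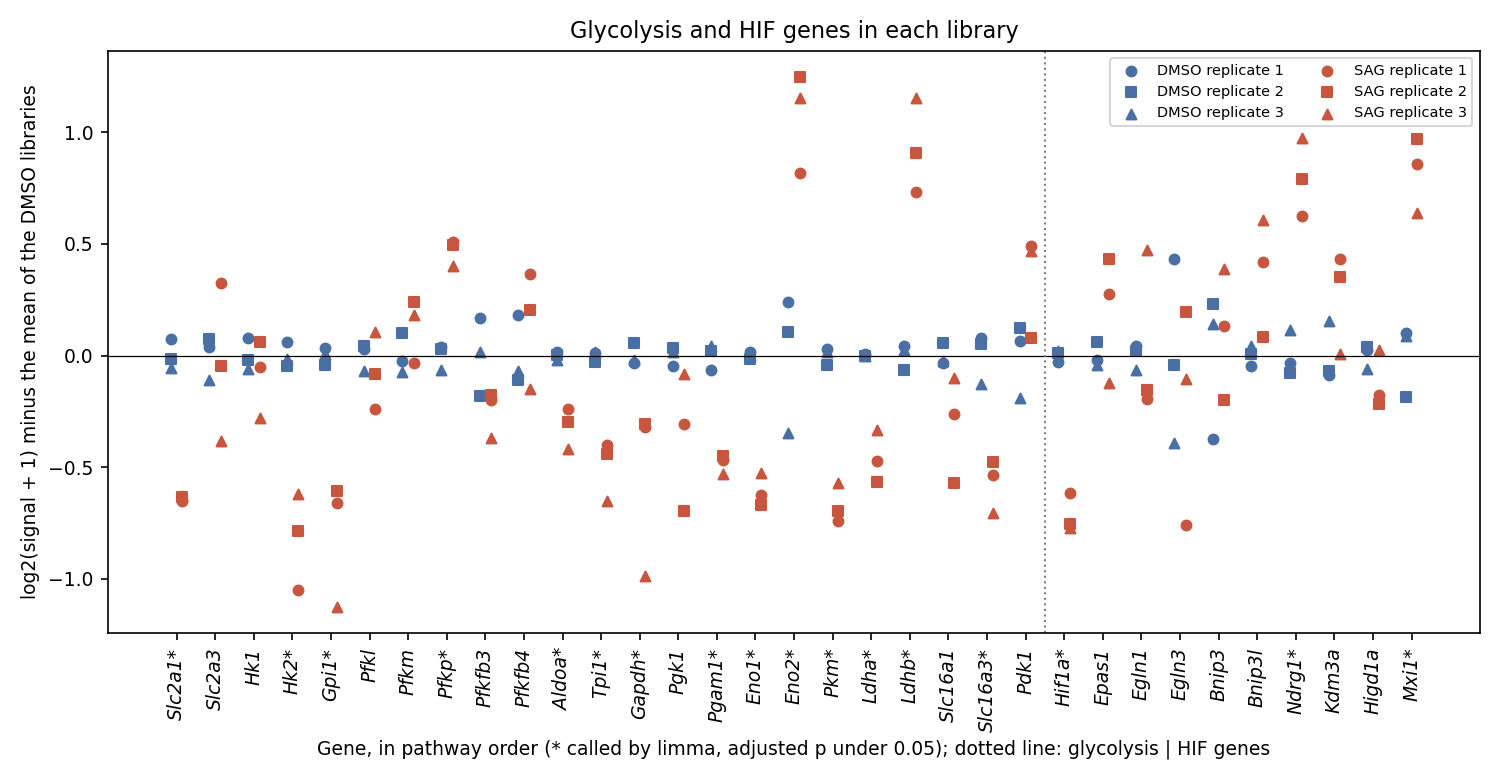
Each point is 1 library (DMSO blue, SAG red, marker shape by replicate), and the y axis gives log2(signal + 1) minus the mean of the 3 DMSO libraries for each of the 33 genes tested, in pathway order. The DMSO points lie close to 0, the SAG points of 11 glycolytic genes marked with an asterisk lie below, and those of Pfkp, Eno2, Ldhb, Ndrg1 and Mxi1 lie above.

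Abundant members made up most of those that fell. The 14 members whose mean signal reached 100, a line drawn after the values were seen, held 10 that fell and 1 that rose, and their median log2 fold change was -0.49. Genes of that abundance fell more often in the whole table too: 32.2% of 1969 fell and 7.72% rose, against 71.4% and 7.14% of the 14. Of the 19 tested members below that line 2 fell and 4 rose, against 13.7% and 13.9% of the 10581 genes there.

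As a share of each library's reads, which no scaling factor touches, the 17 enzymes from hexokinase to lactate dehydrogenase held 0.658%, 0.653% and 0.660% in DMSO replicates 1 to 3. With SAG they held 0.545%, 0.542% and 0.494%. Every SAG library was thus below every DMSO library, and the mean share was 1.25-fold lower.

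Of the genes for glucose entry and its first phosphorylation, Slc2a1 and Hk2 fell and Slc2a3 and Hk1 were not called. Slc2a1, the widespread glucose transporter GLUT1, had signals of 115, 108 and 105 in DMSO replicates 1 to 3 and 69.1, 70.0 and 70.3 with SAG. It was 1.57-fold lower (log2 fold change -0.65, SE 0.09; limma, Benjamini-Hochberg adjusted p = 0.00123), and the SAG libraries hardly differed from each other. Slc2a3, the high-affinity transporter GLUT3, was far less abundant at 13 ± 0.956 and 13 ± 3.43 (SD, n = 3 libraries). Its groups overlapped, and its log2 fold change had a 95% interval of -0.45 to 0.39.

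Hexokinase traps glucose in the cell as its phosphate. Hk2, the inducible form and a well known HIF target, stood at 129, 119.6 and 122 in DMSO and at 59.2, 71.2 and 80.0 with SAG. It was 1.76-fold lower (log2 fold change -0.82, SE 0.12; limma, Benjamini-Hochberg adjusted p = 0.00142), the largest decrease among the 33 genes. Hk1, the form found in most tissues, gave 153, 143 and 139 in DMSO and 139.7, 151 and 119 with SAG. The 2 groups of Hk1 overlapped, with a log2 fold change of -0.09 and a 95% interval of -0.34 to 0.16. Per kb of exon, Hk2 made up 54.9% ± 0.511 of the hexokinase signal in DMSO and 42.3% ± 5.92 with SAG. The share of Hk1 was 44.5% to 45.5% in DMSO and 51.0% to 62.3% with SAG. Before division by length, the signal of Hk1 was above that of Hk2 in every library of both groups. Which gene is the larger in DMSO thus depends on the exon lengths used (8532 bp for Hk1 and 5969 bp for Hk2).

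Gpi1, which turns glucose phosphate to fructose phosphate, had signals of 522, 495 and 511 in DMSO and 322, 334 and 233 with SAG. It was 1.72-fold lower (log2 fold change -0.80, SE 0.14; limma, Benjamini-Hochberg adjusted p = 0.00285). Phosphofructokinase, the committed step, had 1 subunit gene that rose and 2 that were not called. Of the 3, Pfkp, the platelet type, rose from 146, 145 and 136 to 203, 201 and 188 (log2 fold change 0.47, SE 0.09; limma, Benjamini-Hochberg adjusted p = 0.00500). Exons of Pfkp overlap those of Pitrm1 on the other strand over 748 bp in GENCODE M21, and the strand setting of the counting is not given in the sources used here, though the library kit keeps strand. Pitrm1 itself was 1.57-fold lower, and the part of reads from the overlap in either gene's values was not tested. The liver-type Pfkl was at 130.2 ± 5.34 and 124 ± 15.1 (SD, n = 3 libraries), and the muscle-type Pfkm at 42.2 ± 2.72 and 46.4 ± 4.6. Neither was called, and their 95% intervals on the log2 scale were -0.32 to 0.18 and -0.14 to 0.39. Per kb, Pfkp went from 24.8% ± 0.376 to 31.3% ± 3.02 of the 3 genes. Their summed level per kb was 40.7 to 44.4 in DMSO and 44.0 to 49.4 with SAG, with overlapping groups.

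The kinase-phosphatases Pfkfb3 and Pfkfb4 set the level of the sugar bisphosphate that switches phosphofructokinase on, and both are known HIF targets. Pfkfb3 was at 34.6, 26.9 and 31.0 in DMSO and 26.6, 27.0 and 23.5 with SAG, and Pfkfb4 at 5.09, 3.98 and 4.12 and 5.93, 5.19 and 3.85. Neither gene was called, and the groups overlapped for both.

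From aldolase down to pyruvate kinase the single or dominant gene of each step was lower, and for all of these but Pgk1 the decrease passed the test. Aldoa, the muscle-type aldolase, stood at 859, 852 and 838 in DMSO and at 720.1, 691 and 635 with SAG. It was 1.25-fold lower (log2 fold change -0.32, SE 0.09; limma, Benjamini-Hochberg adjusted p = 0.0283). That call was lost in 7 of 18 alternative settings, among them scaling by library total (0.213) and the fits without DMSO replicate 1, 2 or 3 (0.125, 0.118 and 0.112). Aldoc, the brain-type gene, was close to absent, at 19, 12 and 1 counts for DMSO and 9, 3 and 3 for SAG, and was not tested. Tpi1, which interconverts the triose phosphates, went from 323, 315 and 325 to 243, 236 and 204 and was 1.41-fold lower (limma, Benjamini-Hochberg adjusted p = 0.00547).

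Gapdh, often used as a reference gene, gave 968, 1031 and 978 in DMSO and 794, 802 and 499.9 with SAG. SAG replicate 3 was thus well below the other 2 SAG libraries, and all 3 were below DMSO. The decrease was 1.42-fold (log2 fold change -0.54, SE 0.17; limma, Benjamini-Hochberg adjusted p = 0.0399). The call was lost in 7 of 18 alternative settings, among them scaling by library total (0.139) and the fits without DMSO replicate 1, 2 or 3 (0.108, 0.128 and 0.113). With edgeR on the recovered reads its adjusted p was 0.0539. Pgk1, the first enzyme to make ATP, was at 311, 329.6 and 325 in DMSO and 260.1, 198 and 304 with SAG. The groups did not overlap, but the SAG libraries were spread wide and the decrease was not called (limma, Benjamini-Hochberg adjusted p = 0.0875). It was when SAG replicate 3 was left out (1.95e-05). The decrease of Pgk1 was also called with length and GC trends removed, alone (0.0472) or with a replicate block (0.0423).

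Pgam1, which moves the phosphate group, stood at 159.6, 169 and 172 in DMSO and 120.3, 122 and 115 with SAG, 1.40-fold lower (log2 fold change -0.48, SE 0.09; limma, Benjamini-Hochberg adjusted p = 0.00435). Pkm, the pyruvate kinase gene that gives both the M1 and the M2 enzyme, had the highest signal of any member's own row. It gave 1460.2, 1387 and 1445 in DMSO and 855, 883 and 962 with SAG, a decrease of 1.59-fold (log2 fold change -0.67, SE 0.09; limma, Benjamini-Hochberg adjusted p = 0.000975). The gene rows do not separate its splice forms. GENCODE M21 names 2 pseudogenes each after Aldoa, Gapdh, Pgk1, Pgam1 and Ldha and 1 after Bnip3l, so a part of their reads is uncertain. Pseudogenes under other names were not counted, so other members may be affected too.

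**Figure D2:**
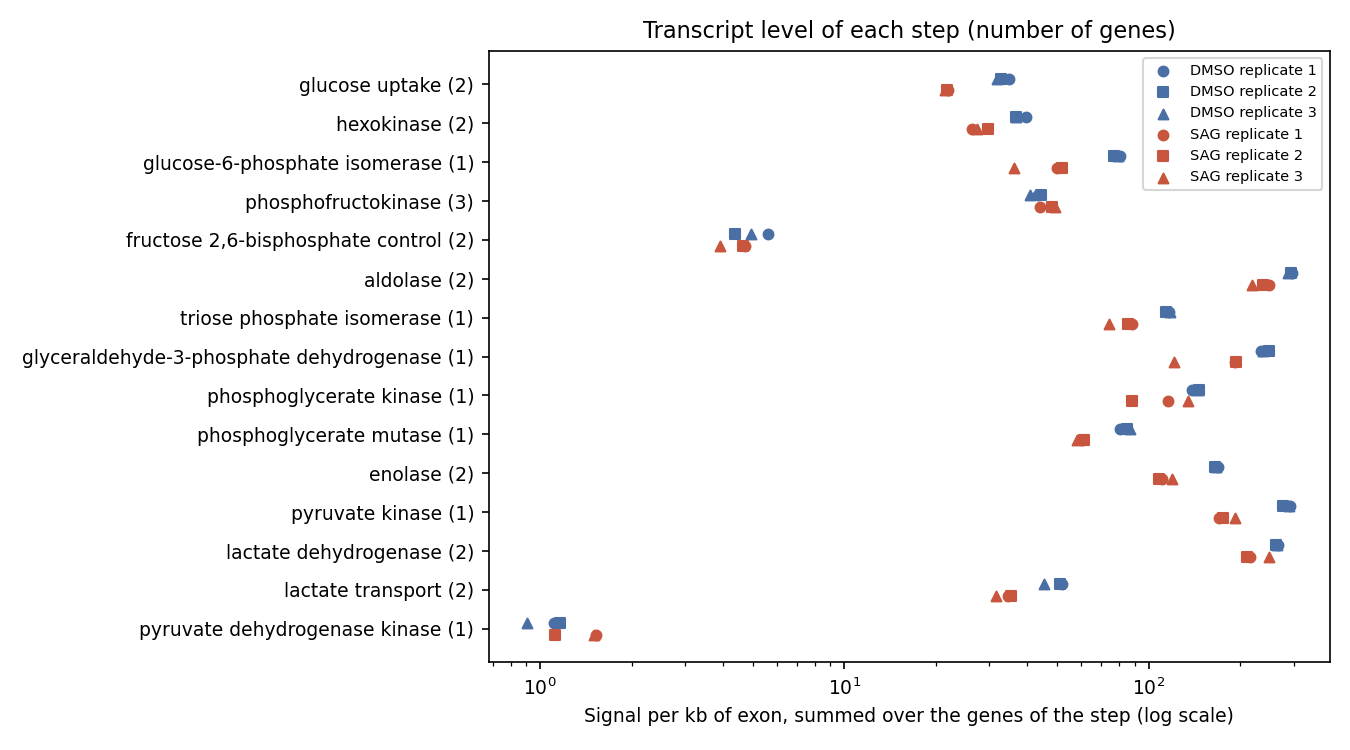
The x axis (log scale) gives the signal per kb of exon summed over the genes of each step, with 1 point per library and the number of genes in brackets. SAG points lie left of the DMSO points from glucose uptake to lactate transport, except at phosphofructokinase and its fructose bisphosphate control, where the groups overlap.

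Per kb of exon, Aldoa (292 in DMSO), Pkm (286), Gapdh (240.1) and Ldha (238) were the highest levels among the members' own rows. Eno1 stood at 165 in its own row. Its near-identical retrogene Eno1b, which is not a member and is left out of the enolase step, had a row at 572. The rank of Eno1 and of its step thus depends on how reads of these genes were shared. Glucose uptake (33.1 for both transporters together) and hexokinase (37.7 for both genes) were the lowest steps between glucose and lactate, next to phosphofructokinase (42.8 for its 3 genes). By summed level per kb the largest decrease of a step was that of Gpi1 (1.72-fold), followed by pyruvate kinase (1.59-fold) and glucose uptake (1.53-fold). Lactate dehydrogenase had the smallest among the steps whose groups did not overlap, at 1.17-fold.

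Enolase and lactate dehydrogenase each held a pair of genes that moved in opposite directions. Eno1, the widespread enolase, stood at 895, 875 and 886 in DMSO and 574, 557 and 614 with SAG, 1.52-fold lower (log2 fold change -0.61, SE 0.09; limma, Benjamini-Hochberg adjusted p = 0.00129). Eno2, the neuronal enolase, rose 2.2-fold from 11, 9.94 and 6.99 to 16.9, 23.1 and 21.6 (log2 fold change 1.07, SE 0.19; limma, Benjamini-Hochberg adjusted p = 0.00329). Eno1 has a near-identical retrogene, Eno1b, which had its own row at 1073 ± 15.3 in DMSO and 694 ± 61.7 with SAG, so reads of these genes cannot be told apart with certainty. Eno1b was lower by nearly the same factor as Eno1, at 1.55-fold. Eno2 made up 1.19% ± 0.260 of the per-kb signal of Eno1 and Eno2 in DMSO and 3.88% ± 0.635 with SAG. With Eno1b counted in, its share was 0.268% ± 0.0584 and 0.907% ± 0.148, and the groups did not overlap in either count.

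Ldha encodes the subunit that favours making lactate, and it stood at 789, 784 and 786 in DMSO and 566, 531 and 624 with SAG. It was 1.37-fold lower (log2 fold change -0.46, SE 0.10; limma, Benjamini-Hochberg adjusted p = 0.00699). Ldhb, whose subunit favours the reverse reaction and prevails in heart, rose 1.94-fold from 43.1, 39.9 and 42.5 to 70.1, 79.2 and 94.1 (log2 fold change 0.93, SE 0.13; limma, Benjamini-Hochberg adjusted p = 0.000831). The spread within DMSO was small for both genes. Per kb of exon, Ldhb held 10.3%, 9.69% and 10.2% of the lactate dehydrogenase signal in DMSO replicates 1 to 3 and 20.7%, 23.9% and 24.1% with SAG.

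**Figure D3:**
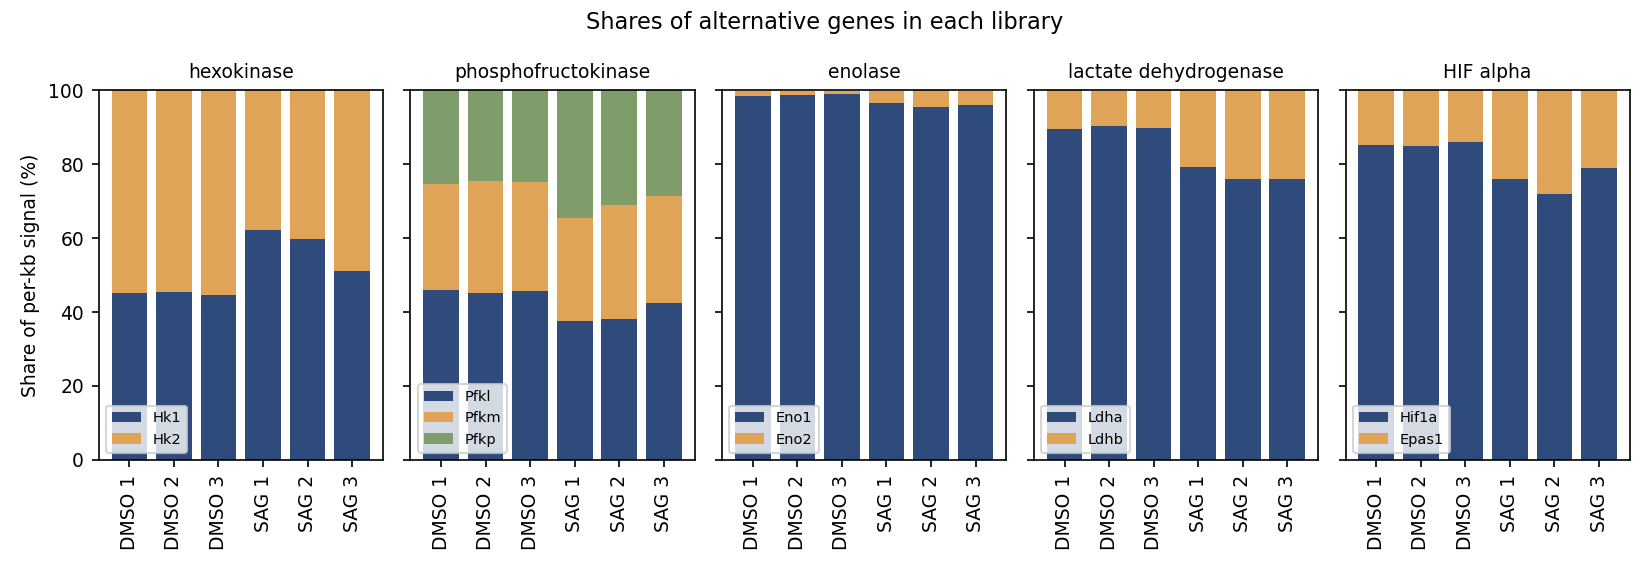
Stacked bars show, for each of the 6 libraries, the share in percent of the per-kb signal held by each gene of 4 enzyme groups and of the HIF alpha pair, on an axis from 0 to 100. Ldhb holds 9.69% to 10.3% of its group in DMSO and 20.7% to 24.1% with SAG, and the shares of Hk1, Pfkp, Eno2 and Epas1 are larger in each SAG library than in any DMSO library.

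The promoters of these 2 opposed pairs are shown because the genes of a pair encode the same reaction and moved apart. They run from 250 bases before to 50 after the most upstream start that RefSeq lists (build GRCm38.p6), 5′ to 3′ on the gene's strand. Capitals mark the hypoxia response element core, ACGTG or GCGTG, on either strand, with overlapping matches joined. CACGTG, which reads the same on both strands, also holds the E-box of the MYC family.
Ldha, chr7:46845554-46845853, plus strand: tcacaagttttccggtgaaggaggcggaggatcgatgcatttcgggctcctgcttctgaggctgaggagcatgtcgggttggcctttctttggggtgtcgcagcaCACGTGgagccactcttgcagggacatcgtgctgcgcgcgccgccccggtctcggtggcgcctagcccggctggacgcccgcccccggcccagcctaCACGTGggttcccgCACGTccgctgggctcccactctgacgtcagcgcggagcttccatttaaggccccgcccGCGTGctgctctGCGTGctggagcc
Ldhb, chr6:142507908-142508207, minus strand: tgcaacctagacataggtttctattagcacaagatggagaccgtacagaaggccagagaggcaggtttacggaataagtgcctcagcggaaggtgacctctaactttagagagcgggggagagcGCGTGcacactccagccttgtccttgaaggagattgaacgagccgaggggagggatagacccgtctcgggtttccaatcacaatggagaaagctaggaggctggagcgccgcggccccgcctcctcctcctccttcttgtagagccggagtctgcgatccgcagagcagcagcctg
Eno1, chr4:150236458-150236757, plus strand: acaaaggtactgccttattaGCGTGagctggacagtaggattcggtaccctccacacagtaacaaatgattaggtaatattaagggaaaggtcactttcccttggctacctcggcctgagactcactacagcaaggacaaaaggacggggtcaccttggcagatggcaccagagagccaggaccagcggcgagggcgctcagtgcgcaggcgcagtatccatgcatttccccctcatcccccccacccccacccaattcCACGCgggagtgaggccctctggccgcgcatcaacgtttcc
Eno2, chr6:124769624-124769923, minus strand: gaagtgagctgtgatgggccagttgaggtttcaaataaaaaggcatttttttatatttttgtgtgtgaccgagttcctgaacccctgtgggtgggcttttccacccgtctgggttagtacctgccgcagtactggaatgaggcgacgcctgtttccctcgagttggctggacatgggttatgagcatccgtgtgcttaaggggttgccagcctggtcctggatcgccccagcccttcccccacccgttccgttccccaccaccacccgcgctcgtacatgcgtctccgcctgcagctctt
In these windows Ldha has 5 such stretches, Eno1 2, Ldhb 1 and Eno2 0. RefSeq entries were found for 32 of the 36 genes, and the most upstream start of each was used. The core was present in 8 of 12 promoters of genes that fell, in 2 of 4 of genes that rose and in 12 of 13 of tested genes that were not called, against 64.6% of the 9455 tested genes with an entry. A match describes letters and is not a binding site.

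Of the lactate transporter genes, the more abundant one had fewer transcripts. Slc16a3, the exporter MCT4 and a known HIF target, stood at 259, 254 and 224 in DMSO and 169, 176 and 150.1 with SAG, 1.49-fold lower (log2 fold change -0.57, SE 0.11; limma, Benjamini-Hochberg adjusted p = 0.00399). Slc16a1, the transporter MCT1, was at 14.6, 15.6 and 14.7 in DMSO and 12.3, 9.75 and 13.9 with SAG. The groups of Slc16a1 did not overlap, but the difference was called only without SAG replicate 3 (limma, Benjamini-Hochberg adjusted p = 0.0278 there and 0.164 with all libraries). Pdk1, the kinase that keeps pyruvate out of the citric acid cycle and a HIF target, was at 8.61, 9.01 and 7.05 in DMSO and at 11.9, 8.69 and 11.7 with SAG. Its groups overlapped and its log2 fold change of 0.34 had a 95% interval of -0.05 to 0.73.

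Of the HIF alpha subunit genes, Hif1a fell and Epas1 did not pass. Hif1a stood at 285, 293 and 295 in DMSO and 189.8, 172 and 170.1 with SAG, which is 1.64-fold lower (log2 fold change -0.71, SE 0.09; limma, Benjamini-Hochberg adjusted p = 0.000632). Every SAG library was far below every DMSO library, and the call was made in each of the 18 alternative settings. Epas1, which encodes HIF-2 alpha and is prominent in endothelial cells, was at 46.4, 49.2 and 45.7 in DMSO and at 57.2, 63.9 and 43.2 with SAG. SAG replicate 3 lay below DMSO while SAG replicates 1 and 2 lay above it, and leaving out SAG replicate 3 gave a call as higher (limma, Benjamini-Hochberg adjusted p = 0.00336, against 0.341 with all libraries). The summed signal of 7 endothelial markers was 122 to 126 in DMSO and 67.9 to 102 with SAG, but Flt1, which is also a HIF target, made up most of it. Without Flt1 the sum was 31.3 to 38.1 in DMSO and 35.2 to 50.1 with SAG. The part of these markers in the values of Epas1 was not tested. Per kb of exon, Hif1a held 85.4% ± 0.518 of the signal of both genes in DMSO and 75.5% ± 3.51 with SAG. These values are transcript levels, and HIF alpha is governed mainly at the protein.

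The prolyl hydroxylase genes Egln1 and Egln3, which encode PHD2 and PHD3 and are HIF targets themselves, were not called. Egln1 was at 98.7, 97.2 and 91.4 in DMSO and 83.4, 86.0 and 133 with SAG, so SAG replicate 3 lay above DMSO and the other 2 SAG libraries below it. Egln3 was low, with 4.56, 3.0 and 2.14 in DMSO and 1.43, 3.71 and 2.83 with SAG, which rest on 38 to 110 reads per DMSO library and 13 to 35 per SAG library.

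The HIF targets outside glycolysis were few. Of the 8 such genes 6 were tested, 2 rose (33.3%, against 12.9% of all genes) and 0 fell by limma with Benjamini-Hochberg adjustment. At an unadjusted p under 0.05, and by edgeR and DESeq2, the number lower was also 0. With 6 genes, that is not far from the 16.6% of all genes called lower, and in the wider set of HIF targets given further on 14 of 44 fell. The median log2 fold change of the 6 tested genes was 0.32, against -0.03 over all genes. Ndrg1, a stress-responsive gene also named N-myc downstream regulated, rose 1.78-fold from 19.3, 18.7 and 21.5 to 31.1, 35.0 and 39.8 (log2 fold change 0.80, SE 0.13; limma, Benjamini-Hochberg adjusted p = 0.00238). Mxi1, a MAX partner that opposes MYC, rose 1.85-fold from 11, 8.83 and 10.9 to 19.3, 20.9 and 16.4 (log2 fold change 0.82, SE 0.15; limma, Benjamini-Hochberg adjusted p = 0.00405). Both were called in all 18 alternative settings.

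The mitophagy receptor gene Bnip3l was at 48.1, 50 and 51.2 in DMSO and 66.9, 52.8 and 76.2 with SAG. Its groups did not overlap, yet it was not called (log2 fold change 0.37, SE 0.14; limma, Benjamini-Hochberg adjusted p = 0.0717). It was called higher in 7 of 18 alternative settings, among them edgeR (0.0461) and DESeq2 (0.0244) on the recovered reads and without SAG replicate 2 (0.0129) or 3 (0.0436). Its relative Bnip3, also a mitophagy receptor gene, was at 10.7, 16.8 and 15.7 in DMSO and 15.6, 12.2 and 18.8 with SAG, with overlapping groups. Kdm3a, a histone demethylase gene, was at 30.5 ± 3.02 and 37.0 ± 5.71, and was called higher without SAG replicate 3 (limma, Benjamini-Hochberg adjusted p = 0.00508) and with length and GC trends removed (0.0424), against 0.191 as main value. Higd1a, a mitochondrial protein gene, was at 38.2 ± 1.46 and 35.0 ± 3.27 with overlapping groups.

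The most HIF-specific genes were close to the limit of detection in both groups. Car9, the carbonic anhydrase used as a hypoxia marker, was counted 6, 13 and 12 times in the DMSO libraries and 3, 16 and 0 times in the SAG libraries. The library with 0 reads, SAG replicate 3, allows a signal of up to 0.385, the value of 3 reads there. Ankrd37, an ankyrin repeat gene, was counted 15, 12 and 32 times against 2, 14 and 3. As scaled signal the groups overlapped for both genes. Car9 was at 0.248 to 0.677 in DMSO and 0 to 1.70 with SAG, and Ankrd37 at 0.555 to 1.80 and 0.220 to 1.48. Neither gene passed the filter or was tested, and at this depth the reads are too few to tell whether the groups differed.

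**Figure D4:**
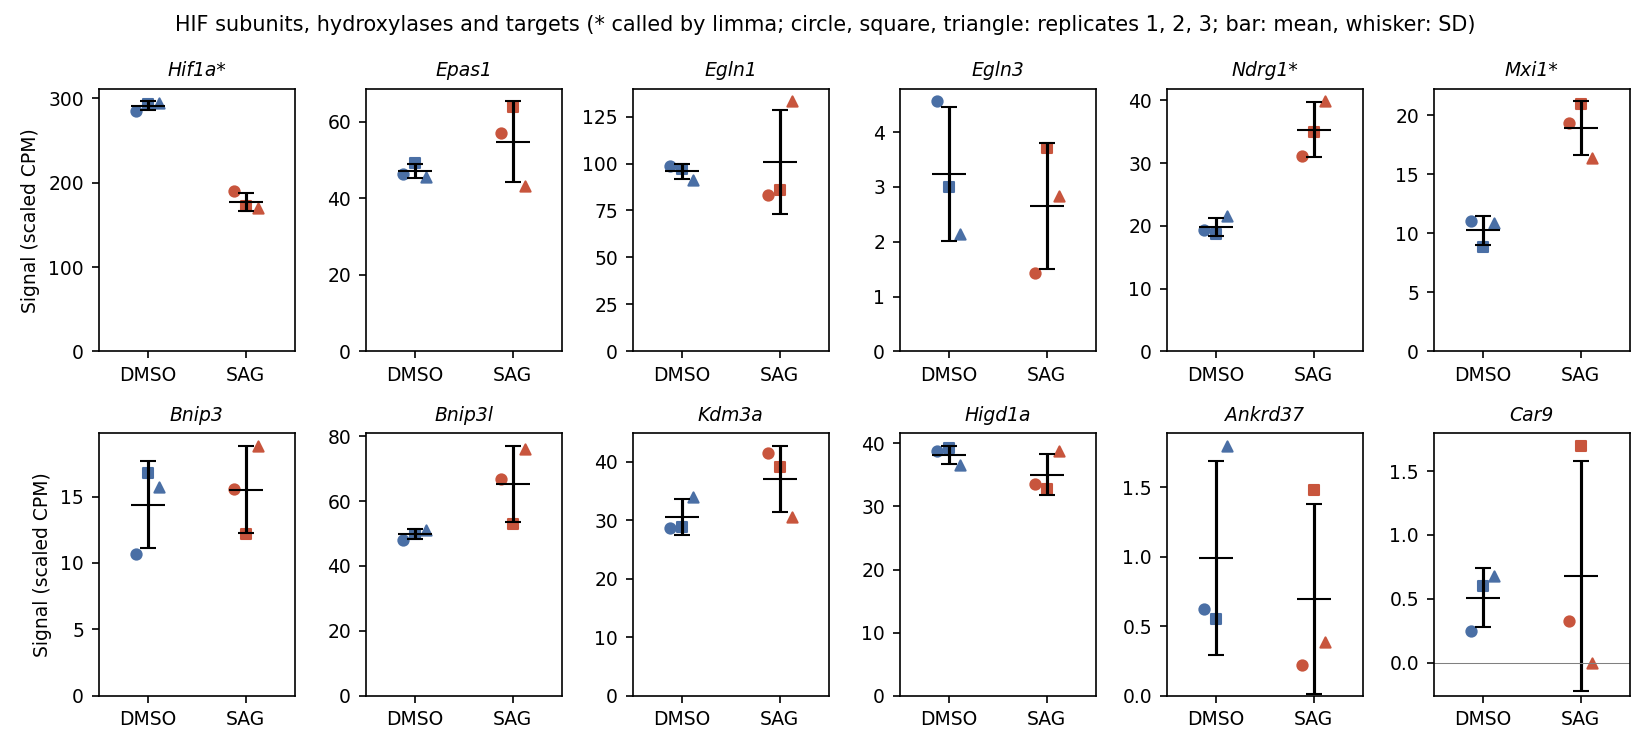
Each panel plots the signal of 1 HIF gene on a linear axis, with 1 point per library and the mean and SD of 3 libraries per group. Hif1a lies at 285 to 295 in DMSO and 170.1 to 189.8 with SAG, Ndrg1 and Mxi1 are higher in each SAG library than in any DMSO library, and Car9 and Ankrd37 stay under a signal of 2 in each library (highest values 1.70 and 1.80).

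Other genes of sugar metabolism held more that fell than rose. Of 34 other glycolytic enzymes and sugar transporters 23 were tested, 8 fell (34.8%) and 4 rose (17.4%), against 16.6% and 12.9% of all genes, with a median log2 fold change of -0.12. Emb (embigin, a partner of lactate transporters) was 2.68-fold lower, at 17.4 ± 1.39 and 6.49 ± 1.34. The muscle enolase gene Eno3 was 2.16-fold lower, at 48.9 ± 1.73 and 22.7 ± 5.26, and the smooth muscle markers given above were lower in the same libraries; the part of either in the other was not tested. Slc2a4, the insulin-responsive transporter GLUT4, rose 1.79-fold from 6.05 ± 0.194 to 10.8 ± 1.25, and Pfkfb2, a further kinase-phosphatase, was 1.51-fold lower. The call of Pfkfb2 was lost without DMSO replicate 2 or 3 (limma, Benjamini-Hochberg adjusted p = 0.0560 and 0.0504) and with DMSO reads thinned (0.0511). Leaving out single libraries moved this list: 3, 2 and 4 fell without DMSO replicates 1, 2 and 3, and 1, 1 and 2 rose, while 1 and 2 rose without SAG replicates 1 and 2.

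Of 26 genes of the pentose phosphate path, glycogen and gluconeogenesis 22 were tested, 7 fell (31.8%) and 3 rose (13.6%), with a median of -0.31. The share that rose was close to the 12.9% of all genes, and 16.6% of all genes fell. The pentose phosphate genes Pgd and Taldo1 were 1.74-fold and 1.66-fold lower, Pgd from 230.4 ± 3.69 to 132 ± 9.51 and Taldo1 from 222 ± 8.70 to 134 ± 14.1. Pck2, mitochondrial phosphoenolpyruvate carboxykinase and a known ATF4 target, rose 2.11-fold from 78.8 ± 7.26 to 166 ± 21.5 (limma, Benjamini-Hochberg adjusted p = 0.000351). Without DMSO replicate 1, 2 or 3 a single gene of this list rose, and 4 fell without DMSO replicate 3.

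Of 14 genes of pyruvate entry into mitochondria, all tested, 3 fell (21.4%) and 2 rose (14.3%), with a median of -0.25. Both shares were near those of all genes (16.6% and 12.9%). Pdha1 and Dlat, subunits of pyruvate dehydrogenase, were each 1.38-fold lower, Pdha1 from 226 ± 4.91 to 163 ± 16.8. Pdk2, a kinase that restrains that enzyme, rose 1.67-fold, and Mpc2, a subunit of the mitochondrial pyruvate carrier, rose 1.56-fold with 36.9, 33.6 and 55.0 in SAG replicates 1 to 3. Each of these 4 calls was lost in some settings: Pdha1 without DMSO replicate 1 (limma, Benjamini-Hochberg adjusted p = 0.0533), Dlat when scaled by library total and when DMSO replicate 2 or 3 was left out (0.0639 to 0.0713), Pdk2 without DMSO replicate 1 or 2 (0.0857 and 0.0543) and Mpc2 without any 1 of the DMSO libraries and without a filter (0.0525 to 0.104). The list had 1 gene lower without any 1 of the DMSO libraries, 5 lower without SAG replicate 3, and 0, 0 and 1 higher without DMSO replicates 1, 2 and 3.

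A wider set of 49 HIF targets, 44 of them tested, held 14 that fell (31.8%) and 4 that rose (9.09%), against 16.6% and 12.9% of all genes, with a median of -0.25. Loxl2, a collagen cross-linking enzyme gene, was 1.81-fold lower, at 2842 ± 112 and 1567 ± 182. Zfp395 rose 3.77-fold from 12 ± 2.98 to 45.1 ± 3.89, and the lipoprotein receptor gene Vldlr rose 1.66-fold. Vegfa, Adm, Ddit4 and Hilpda, chosen after their values were seen as well known hypoxia genes, were not called (limma, Benjamini-Hochberg adjusted p = 0.0823, 0.631, 0.511 and 0.219). Vegfa (0.0377) and Hilpda (0.0418) were called lower when SAG replicate 3 was left out. With length and GC trends removed Vegfa was also called lower (0.0418). The number that fell was 9 without any 1 of the DMSO libraries, and 2 rose without DMSO replicate 1.

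Of 23 genes that regulate HIF, all tested, 3 rose (13%) and 1 fell (4.35%), against 12.9% and 16.6% of all genes. Hif3a, whose product can restrain the other HIF alpha subunits, rose 6.72-fold from 1.86, 1.57 and 3.10 to 13, 21.8 and 9.12 (log2 fold change 2.25, SE 0.30; limma, Benjamini-Hochberg adjusted p = 0.000794). The groups were far apart despite the spread within SAG. The chaperone gene Hsp90ab1, whose product stabilises HIF alpha among many clients, was 1.39-fold lower, at 2162 ± 66.9 and 1552 ± 91.8. Os9 and Siah2 rose 1.28-fold and 1.38-fold, and both calls were lost without any 1 of the DMSO libraries (limma, Benjamini-Hochberg adjusted p from 0.0738 to 0.126). With length and GC trends removed those of Os9 and Siah2 were also lost (0.113 and 0.141). Without SAG replicate 1 or 2 the number that fell was 2, and without SAG replicate 3 it was 5.

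**Figure D5:**
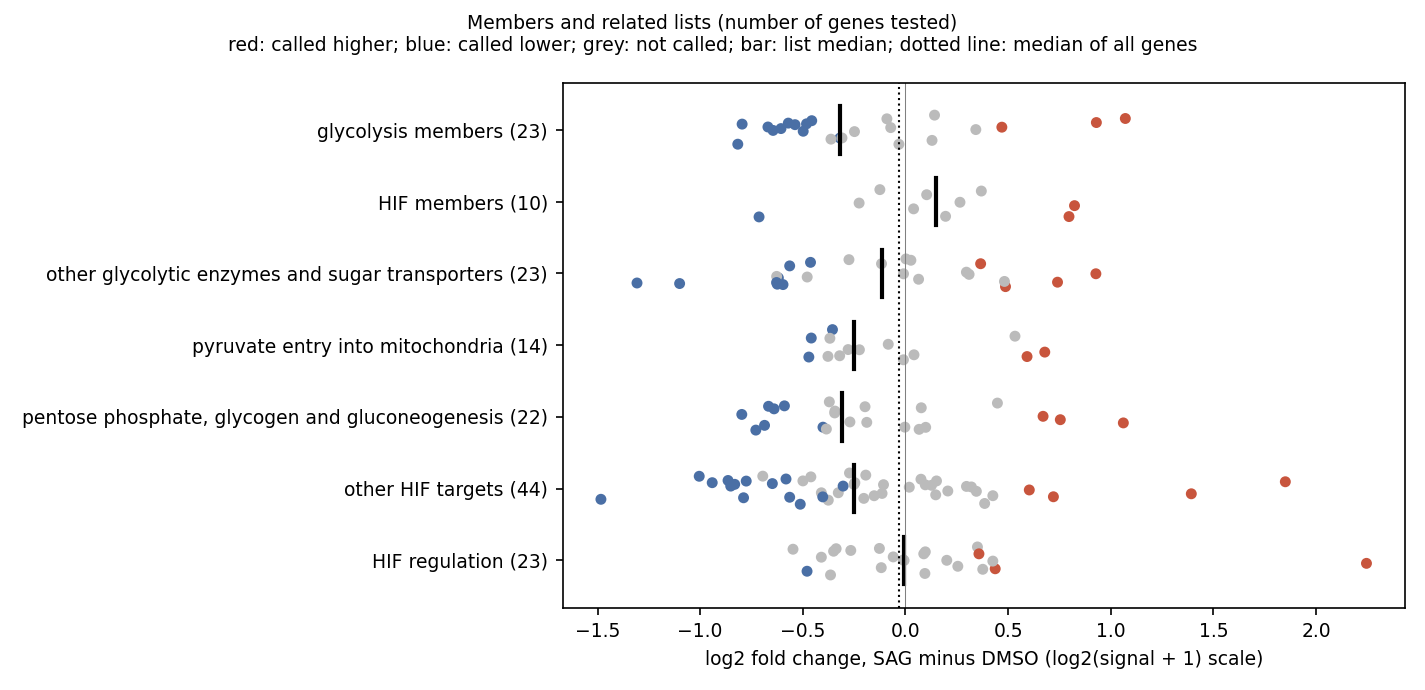
Each point is a tested gene, placed by its log2 fold change (SAG minus DMSO) on the x axis and by list on the y axis, with colour for the call and a black bar for the list's median. The glycolysis members have a median of -0.32 and the HIF members one of 0.15, and Hif3a is the point farthest to the right at 2.25.

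On GRCm38, Hk2 lies on chromosome 6 at 82725025 to 82774454, minus strand, Slc2a1 on chromosome 4 at 119108711 to 119137983, plus strand, and Pkm on chromosome 9 at 59656368 to 59679375, plus strand. Ldha lies on chromosome 7 at 46841475 to 46855627, plus strand, and Ldhb on chromosome 6 at 142490249 to 142507957, minus strand. Hif1a lies on chromosome 12 at 73901375 to 73947530, plus strand, Ndrg1 on chromosome 15 at 66929318 to 66969640, minus strand, and Mxi1 on chromosome 19 at 53310518 to 53375810, plus strand. The signal of a gene sums its reads as the authors counted them, without telling exons or transcript forms apart.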

How the data were processed

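The submitters' processing notes name Trim Galore 0.6.4, the aligner STAR, featureCounts 2.0.0, an edgeR version of 2.2.1 and the build GRCm38. Annotation, strand setting and filters are not given in the sources used here. Signal values by gene symbol make up the table that the authors deposited, named CPM, whose columns sum to 932712 to 1055620. In each column 100% of values were whole multiples of 1 step (tolerance 0.01), which gave whole reads. The 92 spike-in rows, at most 0.0157% of reads, were left out.

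Tests used limma 3.58.1 on log2(signal + 1) (eBayes with trend, R 4.3.3) in a model of group alone. A mean signal of 1 or more was required, which 12550 genes met. Calls are at a Benjamini-Hochberg adjusted p under 0.05 over all of them. Fold changes on this scale understate low genes, and plain folds are ratios of mean signals. Errors after ± are SD over 3 libraries. Whether replicates are separate cultures or animals is not said, and p-values then measure only how these samples spread, which may be technical variation. Intervals of log2 fold changes come from the same fit, so they too measure only how these samples spread. Floors on reads cover counting error only. Lengths (union of exons), coordinates and overlaps are from GENCODE M21, and per-kb levels use its lengths, not the authors'. The fit was tested on simulated data.

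Alternatives were other pseudocounts, filters and scalings, limma without trend, edgeR 4.0.16 and DESeq2 1.42.0 on recovered reads, a replicate block, thinned DMSO reads, length and GC trends removed, and each library left out. Members, lists and tests were chosen with earlier results of these data known. Values in each library are given for called members, the most abundant member of a step and key HIF genes. From each further list up to 4 called genes with the smallest p are named, except a few results that are not reported here.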

Additional observations from a re-analysis of the deposited data

How the results depend on the processing

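Of the single-gene values of members under alternatives, 546 kept direction and side of the threshold, 14 lost and 14 gained a call, and 18 changed sign. The members called lower numbered 10 to 14 over all alternatives, and those called higher 5 to 8. Scaling by library total gave 2477 genes higher and 1259 lower over the whole table, and leaving out 1 library in turn gave 901 to 2463 higher and 1086 to 3373 lower. The causes were not tested.

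The members' median log2 fold change was 0.01 with library totals, -0.10 with edgeR, -0.09 with DESeq2, -0.22 with length and GC trends removed, and -0.19 to -0.08 leaving out 1 library. Those limits of the member counts came from leaving out 1 library too. In the same way other glycolytic genes gave 1 to 4 higher and 2 to 8 lower, pyruvate entry 0 to 3 and 1 to 5, the pentose phosphate list 1 to 4 and 4 to 9, other HIF targets 2 to 6 and 9 to 20, and HIF regulation 1 to 4 and 1 to 5. With library totals, other glycolytic genes lower were 5 and pyruvate entry lower 1, and pyruvate entry higher was 1 with no filter. Other HIF targets higher were 7 with library totals, edgeR, DESeq2 and length and GC trends removed. HIF regulation had 1 higher with length and GC trends removed, and 2 lower there and with the filter at a mean signal of 5.

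Same-numbered libraries correlated in their deviations from the group means at -0.023, 0.033 and 0, so the numbers pair nothing that these data show. With the replicate block 11 members were lower and 5 higher, and Aldoa was not called (limma, Benjamini-Hochberg adjusted p = 0.0652). With the block and length and GC trends removed, the median was -0.22, other glycolytic genes higher 2, other HIF targets higher 7, and HIF regulation 1 higher and 2 lower.

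The log2 fold changes that changed sign were never called. Leaving out 1 library gave -0.21 to 0.14 for Slc2a3, -0.17 to 0.00 for Hk1, -0.16 to 0.01 for Pfkl, -0.17 to 0.16 for Egln1, -0.43 to 0.04 for Egln3 and -0.08 to 0.26 for Bnip3. Library totals gave 0.10 for Slc2a3, 0.05 for Hk1, 0.07 for Pfkl and 0.01 for Higd1a. Slc2a3 was 0.03 with edgeR and 0.04 with DESeq2. With length and GC trends removed, with and without the block, Slc2a3 was 0.05 and Egln1 -0.11. The SAG libraries held 2.67 times fewer reads than DMSO, which limits Car9, Ankrd37 and Aldoc most.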

Other observations

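SAG replicate 3 stood apart for some genes of other kinds. The ribosomal RNA gene Rn45s took 1.67% of its reads, against 0.326% to 0.360% in the other 5 libraries. The steroidogenic genes Star, Cyp11a1 and Hsd3b1, named after their values were seen, had signals of 50.7, 33.9 and 30.8 there. In SAG replicates 1 and 2 Star was at 12 and 11.2, Cyp11a1 at 7.25 and 5.61 and Hsd3b1 at 3.73 and 2.01.

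Among the members, the ratio of SAG replicate 3 to the mean of SAG replicates 1 and 2 was lowest for Gapdh at 0.626 and highest for Egln1 at 1.57. Over all 12550 genes tested, the 5th and 95th percentiles of that ratio were 0.526 and 1.77, and all 33 tested members lay between them.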
